A study of Mus musculus with 24 samples.

Results

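The 149 genes described here are the expressed members of the mouse Zfp series, genes whose symbol is Zfp followed by a number and nothing else. They were chosen by RNA abundance: of 20409 gene symbols found in both the RNA table and the ribosome footprint table, 330 had such a symbol and 149 of these had a mean of at least 200 raw RNA counts over 12 RNA libraries. Zfp30 (mean 200.8), Zfp707 (207.6) and Zfp593 (208.2) were just inside the threshold, and Zfp81 (198.3), Zfp799 (197.4) and Zfp90 (195.3) were just outside it. The comparison set was the 9035 other genes that passed the same threshold. Since RNA abundance chose the members, their RNA level is a description and was not tested.

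The libraries were made from hippocampal slices of male C57BL/6J mice aged 28 to 42 days, with the CA3 region cut away. WT mice were compared with Tsc2+/- littermates, which carry a germline deletion of 1 Tsc2 allele made by crossing a floxed line to CMV-Cre, so every cell type carried the deletion. Slices received vehicle (artificial cerebrospinal fluid) or 100 µM DHPG, dihydroxyphenylglycine, an agonist of the group I metabotropic glutamate receptors, for 5 min, and all slices then received cycloheximide at 100 µg/ml to hold ribosomes in place. The 4 combinations of genotype and treatment had 3 libraries each for RNA-seq and 3 for ribosome profiling, every library from slices pooled over mice. Ribosome-protected fragments (RPFs) show how many ribosomes sit on the coding sequence of an mRNA, and RPFs divided by RNA give translation efficiency (TE).

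Most Zfp proteins are C2H2 zinc finger proteins. A C2H2 finger is a short fold in which a pair of cysteines and a pair of histidines hold a zinc ion, and an array of such fingers, joined by a conserved linker, reads a stretch of DNA. Many family members also carry a KRAB domain, which recruits the corepressor Trim28 and, through it, the histone methyltransferase Setdb1, and these KRAB zinc finger proteins are best known for silencing retroelements and for keeping imprints. Genes of the family lie in tandem clusters that grew by duplication, so neighbouring copies can share long stretches of sequence. The series also takes in proteins that are named for a zinc finger but act on RNA, ribosomes or signalling.

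In the RefSeq models of GRCm38.p6, the assembly also called mm10, all 149 genes had a coding model. At least 1 C2H2 finger was found in 145 of them (97.3%), against 2.28% of the other genes, and the median was 9 fingers, with the most in Zfp142 (36) and Zfp462 (33). A KRAB pattern was found in 44 (29.5%), against 0.134% of the other genes. The 4 proteins without a C2H2 match were Zfp36, which has 2 CCCH fingers instead, Zfp365, Zfp330 and Zfp703. Coding GC content ran from 35.6% in Zfp942 to 69.9% in Zfp575, around a median of 53.0%, close to the 53.3% median of the other genes. The width of that range is easiest to see in a single finger. The DNA below codes for 1 finger and the linker after it in 3 genes: the gene with the lowest and the gene with the highest coding GC content among those with a finger and linker of the standard spacing, and the one of these with the least unique coding sequence. Each is read 5′ to 3′ on the coding strand, the codons of the zinc-binding cysteines and histidines are in capitals, and the last 15 bases code for the linker TGEKP.
Zfp942, chr17:21929017-21929094, minus strand: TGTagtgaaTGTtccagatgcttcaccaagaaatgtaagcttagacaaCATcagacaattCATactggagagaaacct
Zfp771, chr7:127254024-127254101, plus strand: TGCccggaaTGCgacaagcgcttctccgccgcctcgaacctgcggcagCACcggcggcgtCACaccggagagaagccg
Zfp617, chr8:71932416-71932493, plus strand: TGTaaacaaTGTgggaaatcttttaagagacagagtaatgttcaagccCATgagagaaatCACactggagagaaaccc
The finger of Zfp942 had a GC content of 38.5%, that of Zfp771 70.5% and that of Zfp617 39.7%. Of the 78 bases, 43 were identical between Zfp942 and Zfp771 and 49 between Zfp942 and Zfp617. Both AT-rich fingers come from KRAB genes. However, only 25.1% of the 30-base words in the coding sequence of Zfp617 occur at most once in the genome. The median over the members was 99.9%. Footprints of 26 to 34 bases from repeated words cannot be assigned to 1 gene, and the study kept uniquely mapped reads.

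The RNA libraries held 14801679 to 24067838 counts and the RPF libraries 5296006 to 13613673. In RPF replicates 2 and 3 of every group, 97.9% to 98.5% of the non-zero counts were even, against 48.2% to 49.0% in replicate 1 and 48.5% to 49.7% in the RNA libraries, and results with these counts halved are given in the closing section. Tsc2 RNA was 191 ± 4.64 CPM (counts scaled to library size, SD, n = 3) in WT vehicle and 134 ± 4.84 CPM in Tsc2+/- vehicle, lower in the mutant by edgeR's quasi-likelihood test (log2 fold change -0.52, SE 0.054, adjusted p = 2.03e-07). In DHPG the log2 fold change of Tsc2 RNA was -0.63, so the targeted gene followed the labels in both treatments. Among markers, the summed RNA of the CA1 list was 1073 to 1208 CPM over all libraries and that of the CA3 list 75.3 to 98.7 CPM. The summed RNA of the dentate granule cell list (Prox1, Dsp, C1ql2) was 24.1 to 40.4 CPM in WT vehicle and 20.1 to 25.7 CPM in Tsc2+/- vehicle, and that of the blood list was 20.4 to 26.2 CPM and 2.51 to 15.97 CPM in the same groups. The part of either in the genotype results below was not tested. In such bulk slices fewer cells of a type and less RNA per cell cannot be told apart.

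Expressed Zfp mRNAs were scarce. Together they held 0.544% to 0.569% of RNA counts and 0.330% to 0.369% of RPF counts in a library. Their median mean RNA count was 445 (range 200.8 to 11890), against 905 for the other genes, and per kb of transcript the median was 6.09 CPM against 14.5 CPM. The mean RPF count of a member ran from 14.3 in Zfp408 to 1086 in Zfp207, with a median of 137.

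Zfp365 had the most abundant RNA of the family, far above all others. It encodes a protein that binds Disc1 and is known for roles in neurite and oligodendrocyte development, and its RNA level was 139.8 CPM per kb. Across libraries its RNA was 567, 590 and 534 CPM in WT slices with vehicle and 564, 581 and 576 CPM with DHPG. In Tsc2+/- slices it was 617, 584 and 585 CPM with vehicle and 599, 597 and 592 CPM with DHPG. The libraries of both Tsc2+/- groups lay above those of WT DHPG, and Tsc2+/- DHPG also lay above WT vehicle, by small steps that did not pass the tests described further on. Zfp706, which encodes a small single-finger protein, followed at 51.0 CPM per kb, then the RNA-binding protein gene Zfp106 (43.4), the E3 ubiquitin ligase gene Zfp91 (43.1) and Zfp36 (36.6), which encodes tristetraprolin, a protein that binds AU-rich elements and speeds mRNA decay. The lowest RNA levels per kb were those of Zfp26 (1.34 CPM), Zfp407 (1.74), Zfp521 (1.89), Zfp275 (2.12) and Zfp719 (2.19). Zfp521 is a regulator of neural and blood progenitors, and Zfp26 and Zfp719 carry the KRAB pattern.

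Ribosome footprints per RNA were lower on the Zfp mRNAs than on the other genes. The TE level used here is the log2 ratio of RPF CPM per kb of coding sequence, without its first and last 30 bases, to RNA CPM per kb of transcript, in libraries of the same group and replicate number. Its median was 0.60 over the 149 members and 1.07 over 8976 other genes with a coding model, a difference of -0.47 on the log2 scale. The member median lay below the other genes' median in all 12 library pairs. In WT slices it was 0.56 ± 0.096 with vehicle and 0.61 ± 0.020 with DHPG, and in Tsc2+/- slices 0.59 ± 0.014 and 0.55 ± 0.10 (SD, n = 3), while that of the other genes was 1.07 to 1.08 in every group. The 4 groups of member medians overlapped, so no order among them can be read. These are medians of a list chosen on RNA counts, which are also the denominator, and they were not tested.

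**Figure D1:**
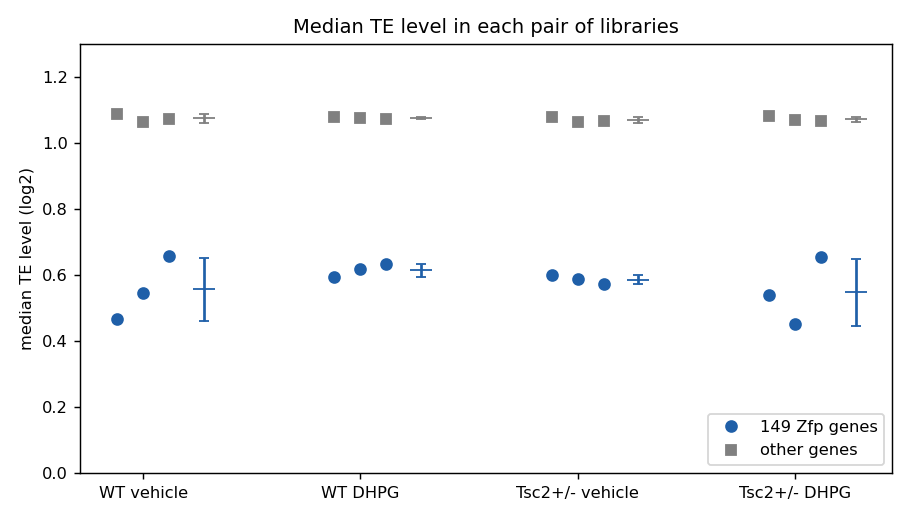
The vertical axis is the median TE level (log2 of footprints per kb over RNA per kb) in each pair of libraries, for the 149 Zfp genes (circles) and the other genes above the RNA threshold (squares), with the mean and SD of 3 pairs beside them. The circles lie between 0.45 and 0.66 and all squares between 1.06 and 1.09.

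The spread among members was far wider than their distance from other genes. TE levels ran from -2.18 to 3.14, with quartiles of -0.19 and 1.46. For Zfp106 and Zfp191 the SD over the 12 library pairs was small beside that range, at 0.15 and 0.10. Some members with lower counts varied more: Zfp768 ran from -1.28 to 0.77 and Zfp3 from -0.97 to 0.55 over the pairs. Zfp191, also named Zfp24 and known for its role in myelination by oligodendrocytes, had the highest TE level, 3.14, or 8.84 on the linear scale. Such a value is a ratio of scaled counts per kb and not a number of ribosomes on each mRNA. Next were the KRAB genes Zfp763 (2.79), Zfp26 (2.76), Zfp871 (2.68) and Zfp941 (2.47). The order among Zfp763, Zfp26 and Zfp871 was within their SDs of 0.18 to 0.30. At the low end Zfp106 stood at -2.18, or 0.221 on the linear scale, followed by Zfp408 (-2.12), Zfp523 (-1.97), Zfp628 (-1.55) and Zfp236 (-1.54). Zfp408 rests on a mean of 14.3 RPF counts per library and its TE level ranged from -3.14 to -1.54. The other 4 ranged over 0.57 to 0.87 from their lowest to their highest pair. Zfp106 and Zfp523 thus had few footprints for their amount of RNA, whereas Zfp26 had the least RNA per kb and one of the highest ratios. Footprints of Zfp106 were not few in themselves, at 49.4 to 60.1 CPM over the RPF libraries.

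**Figure D2:**
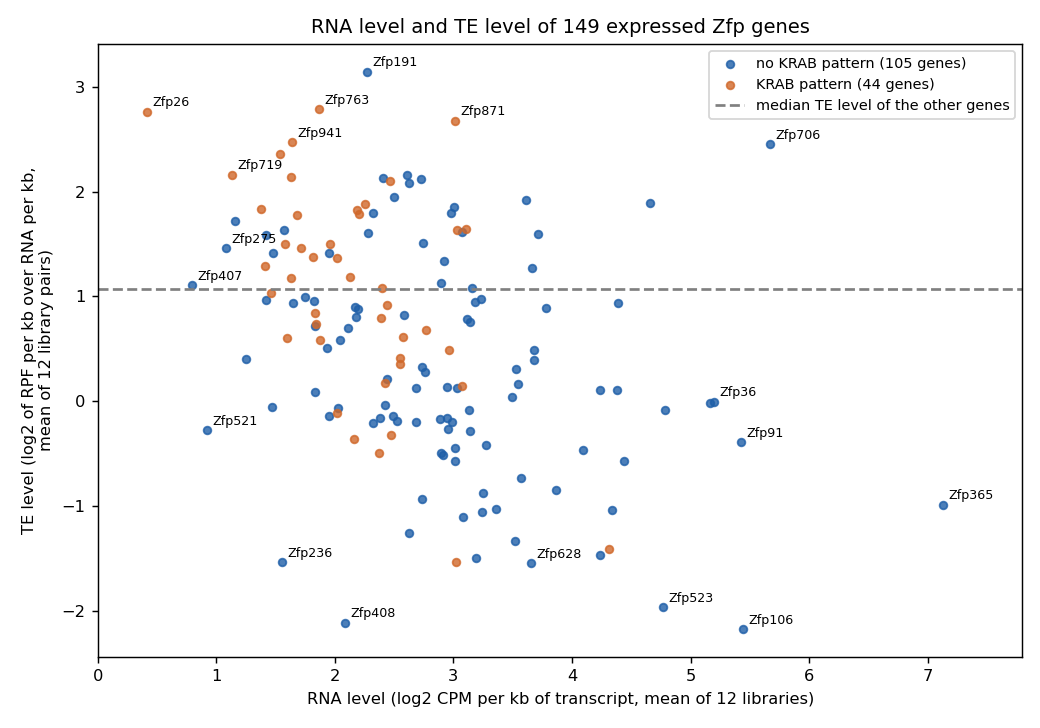
Each point is 1 of the 149 Zfp genes, with its RNA level (log2 CPM per kb, mean of 12 libraries) on the horizontal axis and its TE level (log2, mean of 12 library pairs) on the vertical axis. Orange marks the 44 genes with a KRAB pattern, blue the 105 without it, and the dashed line is the median TE level of the other genes, 1.07. The named genes are the 5 highest and 5 lowest on each axis.

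Members with the KRAB pattern had higher TE levels than those without it. The pattern is a short sequence match, and how many KRAB domains it misses was not tested. The median was 1.18 in the 44 with the pattern, near the 1.07 of the other genes, and 0.16 in the 105 without it, and the RNA level of the first group was lower, at a median log2 CPM per kb of 2.14 against 2.92. Their coding sequences also differed in composition, with a median GC content of 46.0% in genes with the pattern and 55.2% in genes without it. The number of fingers did not order the TE levels (Spearman rho -0.01 over 149 genes), with medians of 0.87 for 1 to 4 fingers, 0.17 for 5 to 9, 0.73 for 10 to 14 and 0.58 for 15 or more.

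TE levels within the family were lower at higher coding GC content. Across the 149 genes Pearson's r was -0.53 and Spearman's rho -0.57, and over the 8976 other genes they were -0.47 and -0.49. Genes are not independent replicates, and all points share the same libraries, so these values are descriptions. Below 45% coding GC the median TE level was 1.59 in 36 members and 1.97 in 853 other genes. From 45% to 55% it was 0.90 in 54 members and 1.36 in 4579 other genes, and at 55% or more it was -0.14 in 59 members and 0.46 in 3544 other genes. The members were thus lower in each of the 3 ranges. Within the ranges, the genes with a KRAB pattern had medians of 1.77 (21 genes), 1.11 (18) and -0.36 (5), and those without it 1.41 (15), 0.85 (36) and -0.11 (54), so at 55% or more the order of the 2 groups was turned, on 5 genes. GC content can also alter how fragments are recovered in both assays, and that part was not tested.

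**Figure D3:**
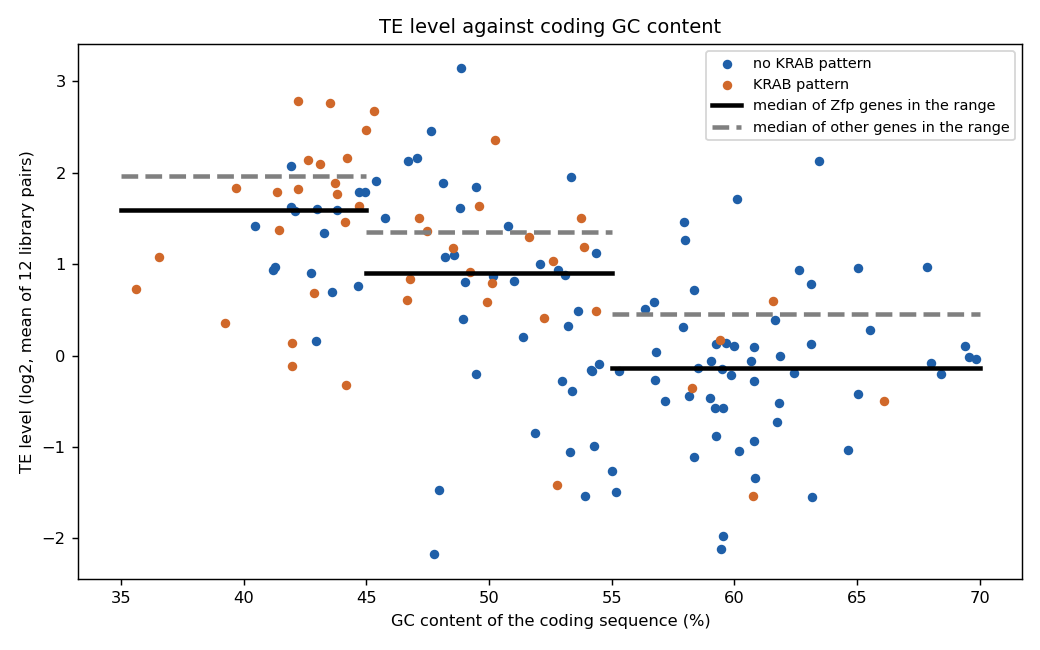
The horizontal axis is the GC content of the coding sequence and the vertical axis the TE level (log2) of each of the 149 Zfp genes, in orange with and in blue without a KRAB pattern. Solid lines are the medians of the Zfp genes below 45%, from 45% to 55% and above, dashed lines those of the other genes, and each solid line lies under its dashed line.

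The distance in TE level from other genes differed with RNA abundance. In genes with a mean of 200 to 400 RNA counts, the median TE level was 0.96 in 70 members and 1.24 in 1911 other genes. From 400 to 800 counts it was 0.13 in 45 members and 1.15 in 2178 other genes, and at 800 or more it was -0.13 in 34 members and 0.94 in 4887 other genes. TE level and RNA per kb had a Spearman rho of -0.41 over the members and -0.03 over the other genes. RNA is also the denominator of TE, and its part in these values was not tested. Annotated lengths enter TE as well, and TE level had a Spearman rho of 0.34 with the ratio of transcript to coding length in members and 0.35 in other genes. That length ratio had a median of 1.92 in members and 1.99 in other genes. With both assays taken per kb of coding sequence, an alternative added after these values were seen, the median was -0.40 in members and -0.03 in other genes.

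Related zinc finger families did not all share the low TE level. The 205 other genes with at least 1 C2H2 finger had a median of 0.67, close to that of the members. The 22 Zbtb genes, in which a BTB dimerization domain precedes the fingers, had 0.90, the 10 Zkscan and Zscan genes, with a SCAN dimerization domain, 1.22, and 13 Zfp genes with a letter after the number 0.95. The 104 members with at least 99% unique 30-base words had a median of 0.39, against 1.0 in the 7138 other genes that met the same limit, and the 45 members below it had 1.08.

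The family is unevenly placed in the genome. Chromosome 7 holds 39 of the 149 members (26.2%), against 7.01% of the other genes, and 61 members have another member within 0.5 Mb. There are 8 runs of at least 3 members with gaps under 0.5 Mb, and neighbours were alike in composition in some of them. At 4915181 to 5053723 on chromosome 7, Zfp628, Zfp579, Zfp865 and Zfp580 lack the KRAB pattern, have a coding GC content of 63.2% to 69.6%, and had TE levels from -1.55 to -0.02. At 29768552 to 30169775 on the same chromosome lie Zfp84, Zfp30, Zfp27, Zfp74, Zfp260 and Zfp146, of which 4 carry the KRAB pattern, with a coding GC content of 43.8% to 52.6% and TE levels from 0.58 to 2.36. Neighbours could also differ. On chromosome 9 at 20428318 to 20521419, the KRAB genes Zfp26, Zfp426 and Zfp266 have a coding GC content of 43.1% to 44.2%, but Zfp426 had a TE level of -0.33, with a range of -0.77 to 0.09, and Zfp26 and Zfp266 had 2.76 and 2.1.

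Among members with known roles on RNA or ribosomes, TE levels covered almost the whole range. Zfp207, which encodes the Bub3-binding protein BuGZ, had 1.89, Zfp326, a subunit of the DBIRD complex that couples transcription to splicing, 2.16, Zfp622, a factor in the maturation of the large ribosomal subunit, 1.27, and the double-stranded RNA-binding protein gene Zfp346 1.13. Zfp36 stood at -0.01, Zfp106 at -2.18, and Zfp598, the E3 ligase that marks collided ribosomes, at -0.94. The median of these 7 was 1.13.

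The 12 members linked to neurons and neural development had a median TE level of 0.06. Zfp292 (1.58), the related genes Zfp110 (1.5) and Zfp369 (1.37), whose proteins bind the p75 neurotrophin receptor, were at the upper end, followed by Zfp407 (1.10) and Zfp536 (0.72). Zfp462 (0.21), Zfp703 (-0.09), Zfp521 (-0.28), Zfp746 (-0.28), Zfp335 (-0.88), Zfp365 (-0.99) and Zfp423 (-1.11) were lower. Zfp746 encodes Paris, a target of parkin, Zfp335 is needed for neural progenitors, and Zfp423 acts in cerebellar development.

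The 15 chromatin and transcription regulators had a median TE level of -0.06. Zfp148 (1.92) and Zfp281 (1.85), related factors that bind GC-rich promoters, the SUMO ligase gene Zfp451 (1.51), Zfp644 (1.34), a partner of the methyltransferase G9a, and Zfp410 (0.88), an activator of Chd4, were above zero. Zfp131 had 0.16 and Zfp384 0.04. Zfp516 (-0.06), the members of one complex Zfp532 (-0.09), Zfp592 (-0.16) and Zfp687 (-0.50), and Zfp827 (-0.17) lay near or below it, and Zfp91 (-0.39), Zfp652 (-1.06) and Zfp609 (-1.50) were lowest. Zfp445, which protects imprints and was the 1 member of the retroelement and imprint list, had 1.64.

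No member differed between genotypes at rest past the threshold. In Tsc2+/- vehicle against WT vehicle, 0 of 149 members passed an adjusted p of 0.1 in RNA, in RPFs or in TE by edgeR's quasi-likelihood test, and 0 did so by DESeq2, whose filter left 123 members without an adjusted p in RPFs. Of all genes tested, 0.0896% were called in RNA, 0.0233% in RPFs and 0.0% in TE. At an unadjusted p under 0.05, RNA was higher for 3 members and lower for 3, where 2.60% and 2.30% of all genes were higher or lower, which leaves the members' counts near the background. RPFs were higher for 3 and lower for 7 members (background 3.38% and 3.17%), and TE was higher for 3 and lower for 6 (background 2.71% and 3.06%). By DESeq2, 5, 6 and 9 members had an unadjusted p under 0.05 in RNA, RPFs and TE. Over all genes 576 of 14516, 541 of 12877 and 669 of 12785 had one by DESeq2. RNA was lower for 93 of 149 members (62.4%), against 48.2% of the other genes, with median log2 fold changes of -0.019 and 0.004. The distance between the medians was -0.01, -0.04 and -0.02 in the 3 same-numbered pairs, negative in each, with a mean of -0.025 ± 0.014 (SD, n = 3).

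Zfp27, a KRAB gene in the chromosome 7 run above, had the smallest p in RNA. Its RNA was 14.7, 16.99 and 15.9 CPM in WT vehicle and 13.0, 12.4 and 12.5 CPM in Tsc2+/- vehicle, so the groups did not overlap. The log2 fold change was -0.34 ± 0.12 (SE, adjusted p = 0.921), and in DHPG it was -0.15 (adjusted p = 0.997). Zfp60 (-0.25, adjusted p = 0.983) and Zfp598 (-0.19, adjusted p = 0.983) followed by p among the members that were lower in all 3 same-numbered pairs, and Zfp422 (0.23), Zfp651 (0.09) and Zfp423 (0.10) had the smallest p among those higher in all 3. By size alone, Zfp593 (-0.28) and Zfp771 (-0.26) came after Zfp27, and Zfp513 (0.21) after Zfp422.

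Zfp865 had the smallest p in RPFs. Its RPFs were 33.7, 23.6 and 24.4 CPM in WT vehicle and 23.0, 17.2 and 20.3 CPM in Tsc2+/- vehicle, where the highest mutant library lay just under the lowest WT library. The log2 fold change was -0.43 ± 0.13 (SE, adjusted p = 0.536). Its RNA did not follow, with 33.8, 38.8 and 37.0 CPM in WT vehicle and 37.2, 37.6 and 33.8 CPM in Tsc2+/- vehicle, overlapping values, and TE gave -0.41 (adjusted p = 0.826). Zfp629 (-0.49) and Zfp622 (-0.28) had the next smallest p among members lower in RPFs in all pairs, and Zfp207 (0.21), Zfp12 (0.39) and Zfp1 (0.25) had the smallest among those higher in all pairs, with adjusted p from 0.596 to 0.757. In TE, Zfp651 (-0.34) and Zfp629 (-0.47) had the smallest p with Zfp865 among members lower in all pairs, and Zfp1 (0.37), Zfp74 (0.41) and Zfp941 (0.38) among those higher in all pairs, with adjusted p from 0.814 to 0.863.

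Zfp598 is the member nearest to Tsc2, at 24669687 to 24682023 on chromosome 17, with Tsc2 at 24595816 to 24632676. Its RNA was 22.0, 24.99 and 22.5 CPM in WT vehicle and 21.6, 19.95 and 19.6 CPM in Tsc2+/- vehicle, without overlap. In DHPG it was 21.0, 23.5 and 21.9 CPM in WT and 23.1, 21.1 and 20.8 CPM in Tsc2+/- slices, which overlap, and the log2 fold change was -0.03 (adjusted p = 0.997). Of the 8 members on chromosome 17 (Zfp942, Zfp13, Zfp598, Zfp523, Zfp871, Zfp763, Zfp414 and Zfp318), whose starts lie 0.0739 to 21.8 Mb from that of Tsc2, RNA was higher for 4 and lower for 4 in vehicle, from -0.19 to 0.06, and none had an unadjusted p under 0.05 in RNA, RPFs or TE.

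In DHPG-treated slices the genotypes again differed for no called member. By edgeR 0 of 149 passed the adjusted threshold in RNA, RPFs or TE (background 0.0482%, 0.0155% and 0.0%), and by DESeq2 also 0. Members with an unadjusted p under 0.05 numbered 9 in RNA, 5 in RPFs and 6 in TE, while 4.64%, 4.13% and 3.03% of all genes had one. DESeq2 gave 7, 3 and 6 such members, beside 526, 299 and 341 of all genes tested. Between these groups the dentate granule cell list did not overlap, with RNA of 28.1 to 37.3 CPM in WT and 16.4 to 23.3 CPM in Tsc2+/- slices and RPFs of 27.7 to 32 CPM and 16.99 to 21.3 CPM, and its part in the values here was not tested. Zfp646 had the smallest p in RNA (-0.24, adjusted p = 0.783). Zfp62 had the largest TE difference, -0.73 ± 0.20 (adjusted p = 1), made of higher RNA (0.32) and lower RPFs (-0.41).

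**Figure D4:**
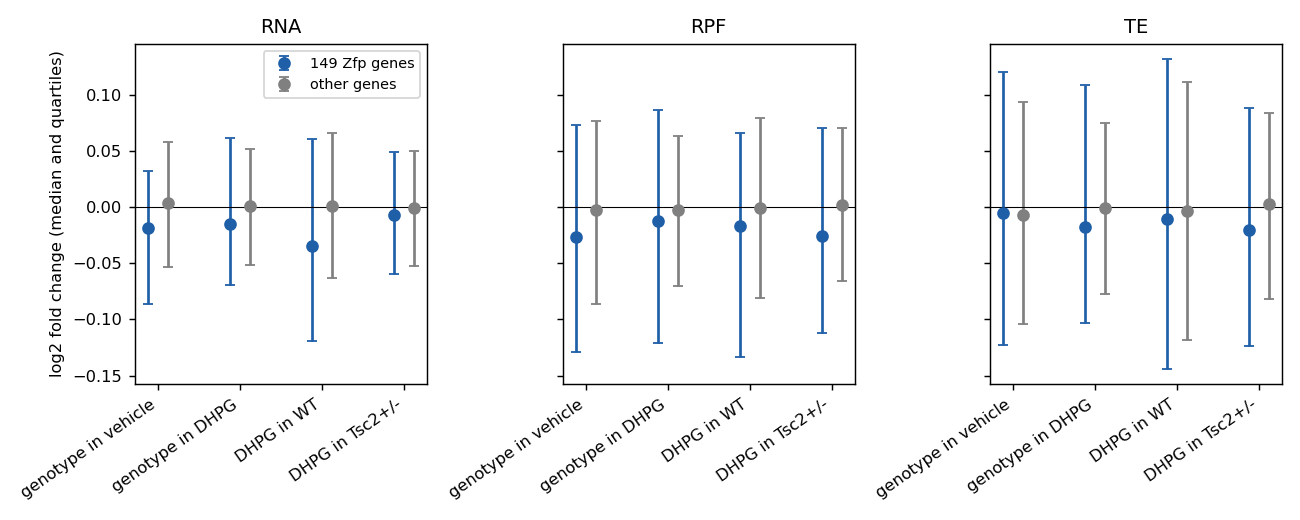
Points are median log2 fold changes and bars the quartiles over genes, in RNA, RPFs and TE, for the genotype comparison (Tsc2+/- against WT) in vehicle and in DHPG and for DHPG against vehicle in WT and in Tsc2+/- slices. The medians of the 149 Zfp genes (blue) lie between -0.035 and -0.005 and those of the other genes (grey) near 0.

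DHPG in WT slices likewise left no member past the threshold in edgeR. All genes called made up 0.0% in RNA, 0.0311% in RPFs and 0.0548% in TE. DESeq2 called 0 members in RNA, 0 in RPFs and 1 in TE, Zfp706. Over all genes it called 0 in RNA, 14 in RPFs and 99 in TE, so 1 member in TE is no excess to be read. Its filter left 123 members without an adjusted p in RPFs and in TE. At an unadjusted p under 0.05, 6 members were higher and 9 lower in RNA, where 3.70% and 2.75% of all genes were. RPFs gave 2 higher and 3 lower members (3.79% and 2.92%), and TE gave 4 higher and 10 lower (4.40% and 4.66%). By DESeq2 the members with an unadjusted p under 0.05 were 11, 3 and 13, beside 781, 560 and 1083 of all genes tested.

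RNA of the KRAB genes was mostly on the lower side in both comparisons against WT vehicle. After DHPG in WT slices 35 of the 44 members with the KRAB pattern (79.5%) had a negative RNA log2 fold change, against 49.5% of the 105 without it and 49.4% of the other genes, and the median was -0.07. In the 3 same-numbered pairs of libraries the median of the 44 genes was -0.07, -0.04 and -0.12. Related families, on short lists, had more genes lower than higher after DHPG in WT. Of the 13 Zfp genes with a letter after the number 9 were lower, with a median of -0.08. The Zbtb genes had 14 of 22 lower (median -0.03), and the Zkscan and Zscan genes 6 of 10 (median -0.03). At an unadjusted p under 0.05 by edgeR, 2 of the 22 and 2 of the 10 were higher and 0 lower. Among the 13, 0 were higher and 1 lower (background 3.70% higher and 2.75% lower). In Tsc2+/- vehicle 30 of the 44 members with the KRAB pattern (68.2%) were negative, with a median of -0.03 and pairs of -0.08, -0.04 and -0.03. Members without the pattern leaned the same way there, with 60.0% negative, against 48.2% of the other genes. Both comparisons share the WT vehicle libraries, in which the members' mean share of RNA counts was 0.564%, against 0.552% to 0.554% in the other groups. None of the 44 passed the adjusted threshold in either. After DHPG in Tsc2+/- slices 30 of 44 (68.2%) were negative, against 47.6% of the members without the pattern and 50.4% of the other genes. The median of the 44 was -0.03, and the pairs gave 0.06, -0.05 and -0.09, so replicate 1 had the opposite sign. In RPFs after DHPG the median of the 44 was 0.001 in WT and -0.01 in Tsc2+/- slices. The grouping was made with the values known, and these counts are not a test.

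Zfp36, an immediate early gene in many tissues, had the smallest p among members in RNA after DHPG. Its RNA was 43.2, 59.2 and 73.4 CPM in WT vehicle and 57.2, 61.9 and 87.7 CPM in WT DHPG, higher with DHPG in every same-numbered pair although the groups overlap, and replicates differed more than treatments. The log2 fold change was 0.23 ± 0.075 (SE, adjusted p = 0.712). RPFs of Zfp36 were 30.7, 32.9 and 42.6 CPM in vehicle and 26.4, 28.6 and 43.1 CPM in DHPG, and the TE difference was -0.37 ± 0.13 (adjusted p = 0.340). In Tsc2+/- slices the RNA log2 fold change was 0.12 and the difference between the genotypes' responses was -0.12 (adjusted p = 0.999).

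Zfp703, a corepressor of the NET family, had a like pattern. RNA was 74.6, 82.8 and 91.3 CPM in WT vehicle and 88.6, 96.5 and 98.7 CPM in WT DHPG, with overlap of the lowest DHPG and the highest vehicle library, and a log2 fold change of 0.19 (adjusted p = 0.712). The TE difference was -0.35 ± 0.11 (adjusted p = 0.291), and the interaction of genotype and DHPG in TE was 0.40 (adjusted p = 0.999). Zfp319 (0.19) had the third smallest p among members higher in RNA in all pairs, and Zfp612 (-0.26), Zfp62 (-0.32) and Zfp706 (-0.13) had the smallest among those lower in all pairs, with adjusted p from 0.725 to 0.737.

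Zfp706 came closest to the threshold in TE. Its RPFs were 37.5, 43.4 and 47.6 CPM in WT vehicle and 50.9, 47.4 and 54.7 CPM in WT DHPG, overlapping by 1 library, and its RNA was 245.9, 225 and 219 CPM against 225, 210 and 196 CPM. Each same-numbered pair had more RPFs and less RNA with DHPG, and the TE difference was 0.38 ± 0.10, which did not pass (adjusted p = 0.176, and 0.0382 by DESeq2). In Tsc2+/- slices RPFs were 42.2, 39.5 and 50.1 CPM in vehicle and 56.7, 48.2 and 54.5 CPM in DHPG, and the TE difference was 0.33 ± 0.10 (adjusted p = 0.999). Only 19.7% of the 30-base words in the coding sequence of Zfp706 occur at most once in the genome, the lowest share of all members. Its counts may thus be split with or lost to near-identical copies, and its values are uncertain.

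Zfp1 and Zfp316 had RPF values of opposite sign, without passing the test. Zfp1 had 23.0, 21.1 and 33.5 CPM in WT vehicle and 28.4, 32.3 and 36.5 CPM in WT DHPG (log2 fold change 0.35, adjusted p = 0.580). Zfp316 had 15.7, 9.79 and 12.6 CPM in vehicle and 9.46, 9.28 and 8.61 CPM in DHPG, with all DHPG libraries below all vehicle libraries (-0.47, adjusted p = 0.629). In TE Zfp1 gave 0.43 (adjusted p = 0.397), Zfp386 0.53 (adjusted p = 0.442) and Zfp316 -0.55 (adjusted p = 0.261). Zfp704 (-0.45) and Zfp462 (-0.18) followed by p among members lower in RPFs in all pairs, and Zfp37 (0.18) followed Zfp1 and Zfp706 by p among those higher in all pairs, with adjusted p from 0.699 to 0.791.

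**Figure D5:**
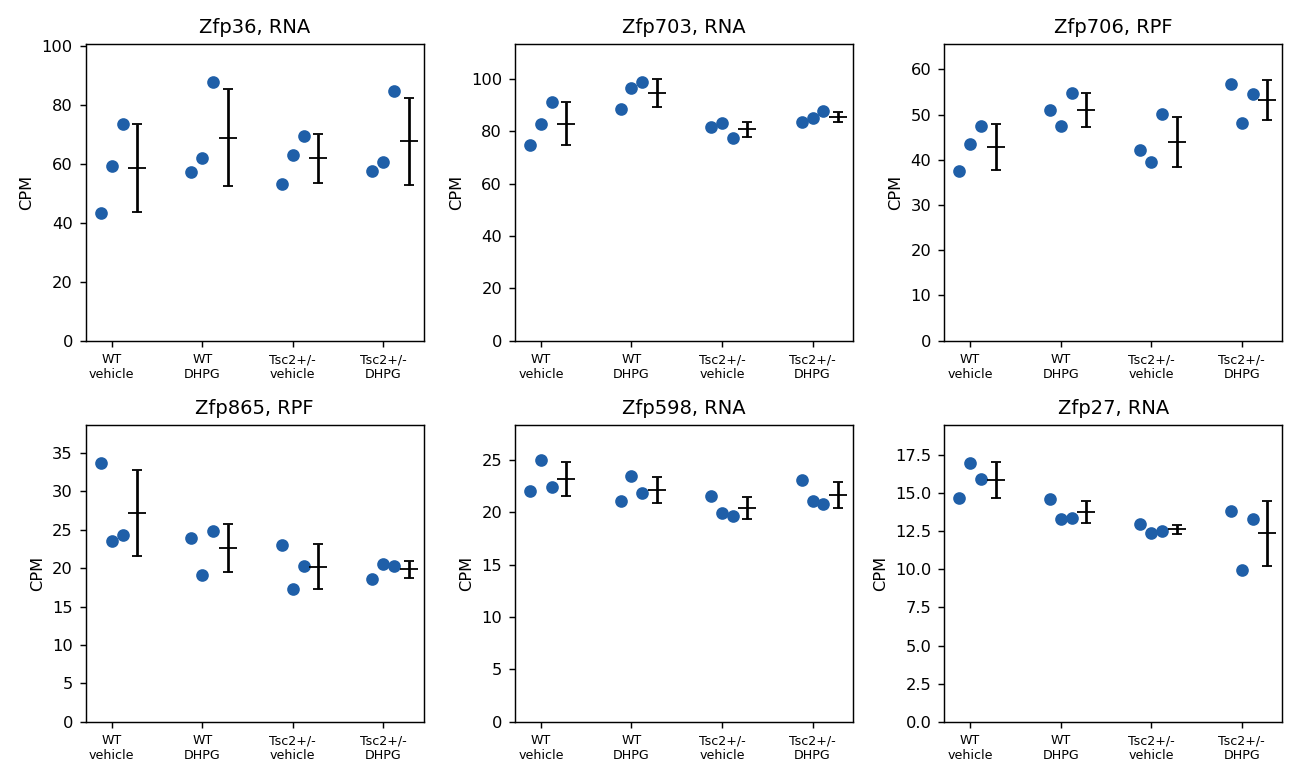
Each panel gives 1 gene and assay, with CPM in each of the 12 libraries (points) and the mean and SD of the 3 libraries of a group. Zfp36 and Zfp703 RNA and Zfp706 RPFs are shown for DHPG, and Zfp865 RPFs, Zfp598 RNA and Zfp27 RNA for genotype. For Zfp27 the 3 Tsc2+/- vehicle libraries (12.4 to 13.0 CPM) lie below the 3 WT vehicle libraries (14.7 to 16.99 CPM).

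In Tsc2+/- slices DHPG gave 0 called members in RNA, RPFs and TE by edgeR and by DESeq2, and 0.0% of all genes were called in each. Unadjusted p under 0.05 was reached by 6 members in RNA, 7 in RPFs and 9 in TE, beside 4.32%, 4.03% and 3.65% of all genes. DESeq2 gave 3, 5 and 7 such members, beside 464, 293 and 437 of all genes tested. Zfp580, a regulator described in vascular cells, had the smallest p in RNA, with 0.23 in Tsc2+/- and 0.18 in WT slices (adjusted p = 1 and 0.740). The interaction of genotype and DHPG was called for 0 members in all 3 measures by both tools (background 0.0% in each). By edgeR 9, 3 and 5 members had an unadjusted p under 0.05, beside 3.47%, 3.81% and 4.06% of all genes. DESeq2 gave 7, 1 and 5 such members, beside 368, 266 and 462 of all genes tested. Zfp74 had the largest interaction, -0.97 ± 0.28 in TE (adjusted p = 0.999).

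The corepressor machinery of KRAB proteins was also without a call. All 22 genes of the list, from Trim28 and Setdb1 to the heterochromatin proteins, NuRD subunits and DNA methyltransferases, were tested, and 0 were called in RNA, RPFs or TE in any comparison. That is near the background, since only 0.0% to 0.0896% of all genes tested were called, depending on the comparison. Trim28 RNA was 138 ± 5.15 CPM with vehicle and 146 ± 6.10 CPM with DHPG in WT slices, and 139 ± 9.17 and 135 ± 5.00 CPM in Tsc2+/- slices (SD, n = 3). Setdb1 RNA was 17.5 ± 0.614 CPM in WT vehicle and 18.2 ± 1.05, 18.2 ± 1.98 and 18.2 ± 0.465 CPM in the other groups in the same order. The median TE level of the 22 genes was 1.26, against 0.60 over the members and 1.07 over the other genes. After DHPG in WT, the TE difference was 0.34 for Hdac2 (adjusted p = 0.242) and -0.22 for Chd3 (adjusted p = 0.364). The RNA log2 fold change of Cbx3 in the same comparison was -0.20 (adjusted p = 0.712).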

How the data were processed

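RNA-seq and ribosome profiling libraries (12 each, 4 groups of 3) were taken from the deposited tables of expected counts that the authors made with RSEM, rounded to whole numbers. Per the study's methods, adapters were trimmed with Cutadapt and reads filtered with Trimmomatic, rRNA and tRNA reads removed with Bowtie2, reads mapped to mm10 with TopHat2, and only uniquely mapped, deduplicated reads kept. RNA was counted over whole RefSeq transcripts and RPFs over coding sequence without its first and last 30 bases. All columns were assigned to samples by name. Replicate numbers were taken to stand for the study's batches, which the labels do not state.

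The counts were fitted with edgeR 4.0.16 (R 4.3.3) by its quasi-likelihood F test (robust, two-sided) with TMM scaling, filterByExpr at a minimum count of 10, all 12 libraries of an assay and the replicate number as a block. TE changes were the assay by group interaction over 24 libraries. Benjamini-Hochberg adjustment covered all 14516 (RNA), 12877 (RPF) and 12785 (TE) genes tested, and all 149 members were among them. Genes were called at an adjusted p under 0.1. TE levels used log2 CPM with a prior count of 2 and RefSeq models of GRCm38.p6. C2H2 fingers were counted as cysteine pairs 2 to 4 residues apart, 12 residues, and histidine pairs 3 to 5 residues apart, and the KRAB pattern was sought in the first 250 residues. Uniqueness was the share of coding 30-base words found at most once in the genome, where words across exon junctions need not occur. The script was tested on simulated counts. DESeq2 1.42.0 and limma 3.58.1 served as alternatives.

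Named genes were the 5 highest and lowest members by RNA per kb and by TE level, the 3 smallest p in each direction for genotype in vehicle and DHPG in WT among those with 1 sign in all 3 pairs, and the role lists. No member was called. Zfp593, Zfp771 and Zfp513 by size, Zfp646, Zfp62, Zfp74 and Zfp580 in the other comparisons, the runs of neighbours, the members on chromosome 17 and the list genes with values were named after their values were seen. The members and lists were chosen with earlier results of these data known. The libraries are pools of slices from several mice, so p-values measure the spread between pools.

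Same-numbered libraries deviated together weakly: the correlation of deviations from group means was 0.02 to 0.14 in RNA and 0.03 to 0.26 in RPFs over 18 pairs each. The block was kept because the study corrected for batch and the number was taken as the batch. The values of 1 gene of the corepressor list are not reported here.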

Additional observations from a re-analysis of the deposited data

How the results depend on the processing

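The number of members called was 0 in each of 15 comparisons, and it was 0 in nearly all alternatives too. The exceptions were 1 member (Zfp706) by DESeq2 and 1 (Zfp526) at a mean RNA count of at least 100 for TE after DHPG in WT, a range of 0 to 4 for the same comparison when a replicate or library was left out (Zfp703, Zfp706, Zfp687 and Zfp316 without WT vehicle replicate 2), and a range of 0 to 1 for RPFs between genotypes in DHPG (Zfp869 without replicate 3). With a replicate or library left out, all genes and comparisons together gave 0 to 451 calls in TE and 6 to 63 in RPFs. How many of these fell in the settings that called members is not given here, so those members are no excess to be read. Without the replicate block, the count of members called was 0 in each comparison, and the paired design changed no member's call. The members named by p for genotype in vehicle and DHPG in WT kept the sign of their log2 fold change under every alternative run. They had been chosen for 1 sign in all 3 pairs, so leaving out libraries could hardly turn it. Members named for other reasons were not checked in this way.

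Calls over all genes and 5 comparisons, 20 in RNA, 9 in RPFs and 7 in TE, were less steady. Without the replicate block they were 10 in RNA and 1 in TE, by DESeq2 27 in RPFs and 100 in TE, without a filter on low counts 41, 44 and 11, with the even RPF counts halved 14 in RPFs and 25 in TE, with the GC and length trend removed 32 in RNA and 0 in TE, with only the compared groups 51 in RPFs, and at an adjusted p under 0.05 2 in TE. Leaving out replicates or libraries gave 13 to 151 in RNA, 6 to 63 in RPFs and 0 to 451 in TE. The cause was not tested.

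The distance between the median log2 fold changes of members and other genes moved by more than its SD over pairs in a few places. For RPFs between genotypes in DHPG (-0.0094) it was -0.019 with the GC and length trend removed, -0.024 at a mean RNA count of at least 100 and -0.021 at 500, and -0.035 to 0.011 without a replicate or library. For RNA after DHPG in WT (-0.036) it was 0.0042 at 500 counts, and -0.050 to -0.014 without a replicate or library. Such ranges were -0.026 to 0.014 for RNA between genotypes in DHPG, -0.074 to 0.0068 for RPFs after DHPG in WT, -0.019 to 0.043 for the RPF interaction, -0.050 to 0.0054 for TE between genotypes in DHPG and -0.044 to 0.047 for the TE interaction.

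The TE level of members minus other genes (-0.47) kept its sign: -0.44 with mean lengths, -0.61 for mostly unique coding sequences, -0.30 at a mean RNA count of at least 100, -1.01 at 500, and -0.38 with coding length for both assays (added after the data were seen). KRAB minus other members (1.02) was 0.88 with mean lengths and 0.75 with coding length for both assays. RPF depth limits members with few counts such as Zfp408. The TE fit with lysates as a block called 0 members.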
